A study of Mus musculus with 6 samples.

Results

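Tryptophan breakdown and the kynurenine pathway were followed in livers of Pcyt2+/- and wild type mice through 9 listed genes: Tdo2, Afmid, Kmo, Kynu, Haao, Acmsd, Qprt, Aadat and Nnmt. A gene was taken where a probe set of the array was annotated to its symbol alone, with the brightest probe set kept had there been several. By that rule 8 of the 9 were measured, each by 1 probe set, among 18820 genes in all. Afmid, whose probe set is shared with Tk1, was not analysed here.

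The livers came from mice 2 months old on a C57BL6 background. The mutant mice carried the genotype Pcyt2+/- (4 mice, replicates 1 to 4, titled as knock-out although the genotype field gives a heterozygote), and they were set against wild type mice of that age (2 mice, replicates 3 and 4). Tissue was frozen in liquid nitrogen, RNA was extracted with TRIzol and an RNeasy kit, and each mouse had its own Affymetrix array. Pcyt2 encodes the enzyme that makes CDP-ethanolamine for phosphatidylethanolamine synthesis. The sources used here name neither the design of the altered allele nor the sex and feeding state of the mice. The limma p-values rest on the spread between these mice, moderated over all genes. Those of the exact permutation tests rest on divisions of the same arrays into groups.

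The liver breaks down most of the tryptophan that is not used for protein. Tdo2, the tryptophan dioxygenase, opens the indole ring, the formamidase Afmid releases kynurenine, and Kmo hydroxylates it. Kynu cleaves off alanine, Haao opens the remaining ring, and Qprt turns the resulting quinolinate into a nucleotide that becomes NAD. Acmsd diverts the product of Haao away from NAD towards full oxidation. Aadat converts kynurenine into kynurenic acid, a side branch. Nnmt acts at the far end, where it methylates nicotinamide, a breakdown product of NAD, with S-adenosylmethionine. Tdo2 is induced by glucocorticoids and by tryptophan itself.

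Along this route the signals of Tdo2 and Kmo were lower on every Pcyt2+/- array than on either wild type array. Their group means were lower by 0.53 and 0.45 on the log2 scale. Such ranges were seen for 7.17% of all genes and for 121 of the 792 genes with a mean above 5. For Tdo2 the nearest arrays of the groups were almost level (7.068 and 7.075). Nnmt had a lower mean by 0.12 with ranges that overlapped. The other enzymes with signal on the array, Kynu, Haao, Qprt and Aadat, had group means within 0.024 of each other. None of the 8 genes passed the test over all genes, and neither did any other gene. The values are log2 expression after the authors' RMA normalization, and most genes had low values close together: array medians ran from 4.397 to 4.403, and 792 of the 18820 genes (4.21%) had a mean above 5. Of the 8 genes, 6 had a mean above 5, Nnmt lay just under it, and Acmsd lay in the low band.

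Tdo2, which sets the pace of hepatic tryptophan breakdown, had a signal that was high on a single wild type array. Pcyt2+/- replicates 1 to 4 had log2 values of 7.07, 6.84, 6.81 and 7.03, against 7.08 and 7.86 in wild type replicates 3 and 4. The groups did not overlap, but the highest Pcyt2+/- array (7.068) and the lower wild type array (7.075) were almost level. The means were 6.94 ± 0.13 (SD, n = 4) in Pcyt2+/- and 7.47 ± 0.56 (SD, n = 2) in wild type, so the wild type mean was 1.44-fold the Pcyt2+/- mean. The difference of -0.53 had a 95% interval of -1.004 to -0.057 and did not pass limma with Benjamini-Hochberg adjustment over all genes (adjusted p = 0.913). Without wild type replicate 4 it was -0.14 (adjusted p = 0.956), and without wild type replicate 3 it was -0.92 (adjusted p = 0.110). In these bulk samples fewer cells of a type and less RNA per cell cannot be told apart.

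Kmo, the mitochondrial monooxygenase that commits kynurenine to the NAD branch, had the smallest p of the 8 genes. The log2 values were 4.91, 5.14, 4.80 and 5.10 in the Pcyt2+/- livers (replicates 1 to 4) and 5.33 and 5.54 in the wild type livers (replicates 3 and 4). All 4 Pcyt2+/- arrays were below both wild type arrays. The group means were 4.99 ± 0.16 (SD, n = 4) for Pcyt2+/- and 5.44 ± 0.15 (SD, n = 2) for wild type, a difference of -0.45 with a 95% interval of -0.70 to -0.21. In limma the adjusted p was 0.607, short of the threshold. With 1 array left out the difference ran from -0.56 to -0.34 (adjusted p from 0.437 to 0.897). Kmo lay near the low band, where log2 differences are compressed. After subtraction of the median of each array on the linear scale, its values were 3.15, 3.81, 2.76 and 3.71 on the Pcyt2+/- arrays and 4.25 and 4.68 on the wild type arrays, a difference of -1.11 (adjusted p = 0.327).

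**Figure D1:**
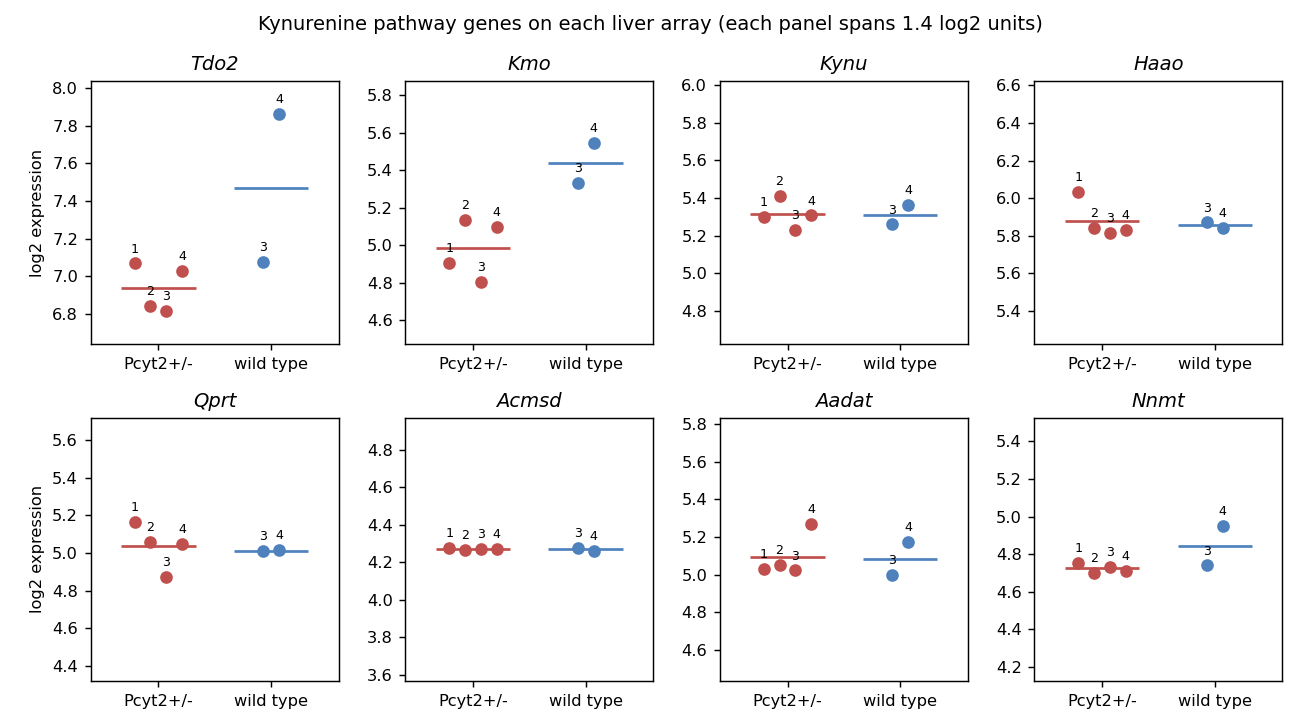
Log2 expression (vertical axis) of the 8 measured genes on each array, Pcyt2+/- (red, n = 4) left of wild type (blue, n = 2), with replicate numbers beside the points and lines at the group means. Tdo2 and Kmo have no overlap between the groups, wild type replicate 4 is the highest array for Tdo2, Kmo and Nnmt, and the ranges of the groups overlap in the other panels.

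The sequences around the start sites of Tdo2 and Kmo, the genes with no overlap between the groups, are shown. They run from 250 bases before to 50 bases after the start, as given by RefSeq on build GRCm38.p6. Whether these genes share any regulation was not tested. Capitals mark matches to 4 short motifs searched on both strands: TATAAA (the TATA box), CCAAT (the CCAAT box, which reads ATTGG on the other strand), TGTTCT (the core of the glucocorticoid receptor element) and GTTAAT (the core of the HNF1 element). None of the 4 overlaps another in these windows. The Tdo2 window lies at chr3:81975679-81975978 on the minus strand and the Kmo window at chr1:175631943-175632242 on the plus strand.
Tdo2: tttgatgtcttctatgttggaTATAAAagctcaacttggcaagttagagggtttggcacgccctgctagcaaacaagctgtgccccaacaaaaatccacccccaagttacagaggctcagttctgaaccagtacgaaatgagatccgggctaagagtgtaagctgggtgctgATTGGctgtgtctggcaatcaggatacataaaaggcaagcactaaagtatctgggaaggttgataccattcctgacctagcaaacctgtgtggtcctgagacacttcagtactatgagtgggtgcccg
Kmo: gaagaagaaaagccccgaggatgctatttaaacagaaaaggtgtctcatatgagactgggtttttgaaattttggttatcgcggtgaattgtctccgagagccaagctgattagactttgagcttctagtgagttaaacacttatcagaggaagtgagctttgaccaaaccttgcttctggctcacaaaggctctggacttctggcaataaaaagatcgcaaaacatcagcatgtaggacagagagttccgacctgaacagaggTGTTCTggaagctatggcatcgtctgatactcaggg
The Tdo2 window held TATAAA beginning 229 bases before the start and the CCAAT box, read on the other strand, 78 bases before it. The Kmo window held TGTTCT at transcribed base 15. RefSeq promoter windows were matched for 7 of the 9 genes, all but Kynu and Nnmt. Among those 7, TGTTCT stood in the windows of 2 (Kmo and Haao), CCAAT in 2 (Tdo2 and Aadat), GTTAAT in 1 (Haao, whose window lies at an alternative start) and TATAAA in 1 (Tdo2). Over 32851 promoter windows of the same length the shares were 19.0% for TGTTCT, 37.4% for CCAAT, 7.1% for GTTAAT and 13.6% for TATAAA. These matches are descriptions of the letters only.

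The enzymes between Kmo and NAD had like values in both groups. Kynu, the kynureninase, had log2 values of 5.30, 5.41, 5.23 and 5.31 in Pcyt2+/- livers against 5.26 and 5.36 in wild type livers. The wild type values lay inside the Pcyt2+/- range, and the difference was 0.0012 with a 95% interval of -0.12 to 0.12. Haao, the dioxygenase that makes the precursor of quinolinate, had 6.03, 5.84, 5.81 and 5.83 in Pcyt2+/- livers and 5.87 and 5.84 in wild type livers. Its difference was 0.022 (95% interval -0.12 to 0.16), and Pcyt2+/- replicate 1 stood above the other arrays. Qprt, the phosphoribosyltransferase at the entry to NAD, had 5.17, 5.06, 4.87 and 5.05 in Pcyt2+/- livers, against 5.01 and 5.01 in wild type livers. The Pcyt2+/- values spread on both sides of the wild type ones, with a difference of 0.024 (95% interval -0.14 to 0.19). For Kynu, Haao and Qprt the intervals of the signal as deposited thus reach from a Pcyt2+/- signal of 0.905-fold to 1.14-fold that of wild type. These are intervals of single genes and not the limit of what the test over all genes could detect. The larger differences of Tdo2 and Kmo did not pass that test either. In limma the adjusted p-values of Kynu, Haao and Qprt ran from 0.996 to 0.997. Qprt, like Kmo, lay near the low band, so its fold range is compressed and does not bound a change of its RNA. With the median of each array subtracted as for Kmo, Qprt had 3.89, 3.61, 3.025 and 3.58 on the Pcyt2+/- arrays. The wild type arrays had 3.47 and 3.49, a difference of 0.045. The differences of Kynu and Haao were then 0.001 and 0.032.

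The branch enzymes also overlapped. Aadat had 5.03, 5.05, 5.02 and 5.27 in Pcyt2+/- livers against 4.998 and 5.174 in wild type livers, where replicate 4 was the highest array of each genotype. Its difference of 0.0073 had a 95% interval of -0.18 to 0.20 (limma adjusted p = 0.997). Aadat too lay near the low band, and its difference was 0.017 after the linear subtraction. Acmsd, the decarboxylase that draws carbon away from NAD, read 4.27, 4.27, 4.27 and 4.27 in Pcyt2+/- livers and 4.28 and 4.26 in wild type livers. Only 15.3% of genes had a lower mean, so the probe set of Acmsd gave no signal above the band in which most of the array lies, and its difference of 0.0015 says nothing about a change in its RNA.

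Nnmt, which consumes a methyl group for each nicotinamide it removes, had log2 values of 4.75, 4.70, 4.73 and 4.71 on the Pcyt2+/- arrays and 4.74 and 4.95 on the wild type arrays. The lower wild type array lay within the Pcyt2+/- range. The means were 4.73 ± 0.024 (SD, n = 4) in Pcyt2+/- and 4.85 ± 0.15 (SD, n = 2) in wild type, a difference of -0.12 with a 95% interval of -0.24 to 0.0032 (limma adjusted p = 0.936). Without wild type replicate 4 it was -0.015 (adjusted p = 0.999), and without wild type replicate 3 it was -0.23 (adjusted p = 0.0945). After the linear subtraction described for Kmo it was -0.48 (adjusted p = 0.659).

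**Figure D2:**
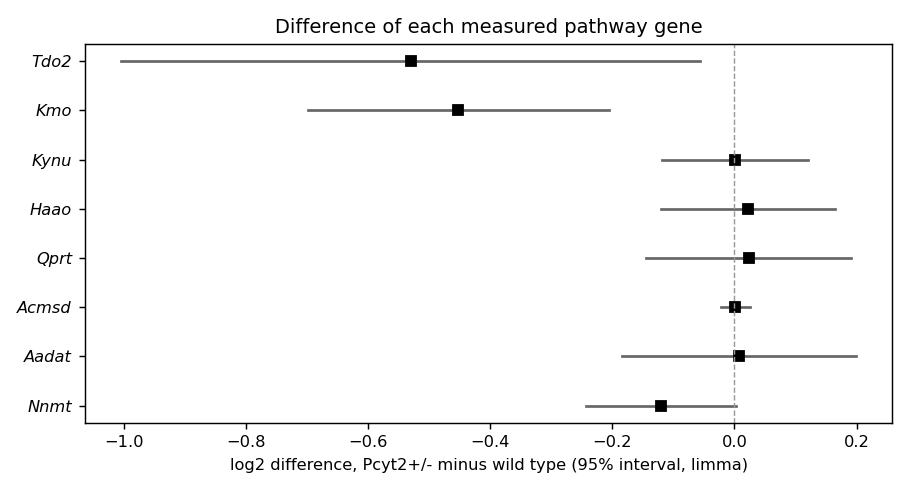
Log2 differences (horizontal axis, Pcyt2+/- minus wild type) of the 8 measured genes in pathway order from top to bottom, with squares for the estimates and lines for limma's 95% intervals. The intervals of Tdo2 (-1.004 to -0.057) and Kmo (-0.70 to -0.21) lie below 0, and those of the other 6 genes include 0. They assume 1 spread for both groups, whereas Tdo2 had an SD of 0.13 in Pcyt2+/- and 0.56 in the 2 wild type arrays.

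Set against the whole array, 0 of the 8 genes passed an adjusted p of 0.05, with 0% of all 18820 genes called. At an unadjusted p under 0.05, 2 of the 8 (Tdo2 and Kmo) were lower and 0 were higher, where 3.44% of all genes were lower and 1.86% higher. Brighter genes were at that p more often in both directions: among the 792 genes with a mean above 5, 14.6% were lower and 5.56% higher, beside 2 and 0 of the 6 pathway genes in that class. Ranges of the groups did not overlap, with Pcyt2+/- lower, for 2 of the 8 genes and for 7.17% of all genes. The share with Pcyt2+/- higher was 0 of the 8 against 5.67% of all genes. Among the 792 genes with a mean above 5, 121 had no overlap with Pcyt2+/- lower and 44 with Pcyt2+/- higher. The 6 pathway genes of that class had 2 and 0. The median difference over the 8 genes was 0.0013, beside -0.0007 over all genes, with 3 of the 8 on the lower side. For genes with a mean above 5 it was 0.0043 in the pathway and -0.020 over the array. For Tdo2 and for Kmo an exact permutation test (two-sided, 15 divisions of 6 arrays into 4 and 2) gave p = 0.0667 each, the smallest value it can give, so that test cannot reach 0.05 here.

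Whether neighbouring enzymes differed in their response was tested within arrays, as the value of 1 gene minus that of the next, for 5 pairs chosen after the values had been seen. The change of Kmo was lower than that of Kynu by 0.45 and lower than that of Aadat, which shares its substrate, by 0.46. As Kynu and Aadat hardly differed between the groups, both contrasts largely restate the difference of Kmo itself. For both pairs all 4 Pcyt2+/- arrays lay below both wild type arrays, and the exact permutation p was 0.0667, the smallest possible, or 0.167 after Benjamini-Hochberg adjustment over the 5 pairs. Tdo2 and Kmo differed in their change by -0.078 (exact permutation p = 0.733, adjusted p = 1.0). Kynu and Haao differed by -0.021 (exact permutation p = 0.867, adjusted p = 1.0), and Haao and Qprt by -0.0015 (exact permutation p = 1.0). With all arrays the differences of Tdo2, Kmo and Nnmt were the lowest, and neighbours in that order had 95% intervals that overlapped. Kmo stood below Tdo2 after the linear subtraction (-1.11 against -0.61) and without wild type replicate 4 (-0.34 against -0.14).

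The array of wild type replicate 4 was the highest of all 6 for Tdo2, Kmo and Nnmt. Leaving it out reduced the difference of Tdo2 more than leaving out any other array, while the difference of Kmo kept its sign and most of its size. The genes with a mean above 5 whose profile over the 6 arrays was nearest to that of Tdo2, by root mean square distance of log2 values centred on each gene's mean, were Elovl3, a fatty acid elongase (0.113), Cyp8b1, the sterol hydroxylase of cholic acid synthesis (0.138), and Hspa8, a constitutive chaperone (0.146), against a median distance of 0.344 over 791 genes. Like Tdo2, to which they were matched, they had their highest value on wild type replicate 4 (5.81, 6.28 and 9.07, against 4.92, 5.26 and 8.31 on wild type replicate 3), which the matching largely fixes. The difference of Elovl3 was -0.36 with all arrays and 0.088 without wild type replicate 4. Nearest to Kmo were Slc38a4, an amino acid transporter (0.105), the gene 4930444G20Rik (0.109) and Ube2d3, a ubiquitin-conjugating enzyme (0.119), with a median distance of 0.244. Slc38a4 had 7.345, 7.299, 7.009 and 7.350 in Pcyt2+/- livers and 7.582 and 7.645 in wild type livers, with both wild type arrays above every Pcyt2+/- array, a pattern that the matching to Kmo likewise largely fixes.

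**Figure D3:**
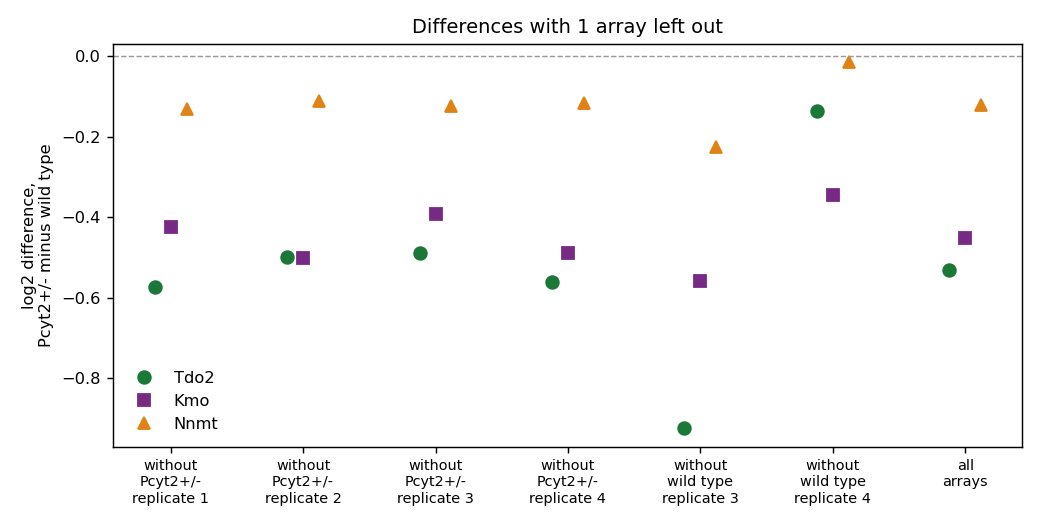
Log2 differences (vertical axis, Pcyt2+/- minus wild type) of Tdo2 (circles), Kmo (squares) and Nnmt (triangles) with the array named on the horizontal axis left out, and with all arrays at the right. Kmo stays between -0.56 and -0.34, while Tdo2 goes to -0.14 and Nnmt to -0.015 without wild type replicate 4.

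Other genes of tryptophan and NAD metabolism were read from a list of 47 genes, of which 45 were measured and 6 had a mean above 5. In limma 0 passed over all genes. At an unadjusted p under 0.05, 2 were lower (Kyat3 and Sirt3) and 2 higher (Aox3 and Got2), beside 3.44% and 1.86% of all genes. Among genes with a mean above 5, as Aox3 and Got2 had, 5.56% were higher. The median difference over the 45 genes was -0.0039. Aox3, a hepatic aldehyde oxidase of the family that oxidises the methylated nicotinamide made by Nnmt, had log2 values of 6.47, 6.10, 6.31 and 6.22 in Pcyt2+/- livers against 5.88 and 5.89 in wild type livers. Every Pcyt2+/- array was above both wild type arrays. Its means were 6.27 ± 0.16 (SD, n = 4) in Pcyt2+/- and 5.89 ± 0.010 (SD, n = 2) in wild type, a difference of 0.39 with a 95% interval of 0.17 to 0.60 (limma adjusted p = 0.628), and with 1 array left out it ran from 0.32 to 0.44.

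Of the aminotransferases that, like Aadat, can make kynurenic acid, Kyat3 had a difference of -0.069 (4.85 ± 0.021, SD, n = 4, in Pcyt2+/- and 4.92 ± 0.061, SD, n = 2, in wild type), which was -0.026 without wild type replicate 4 and -0.24 after the linear subtraction (adjusted p = 0.663). Got2, mainly the mitochondrial aspartate aminotransferase, had 0.044 (8.39 ± 0.025 in Pcyt2+/- and 8.35 ± 0.0069 in wild type), which was 0.0044 when its probe sets were averaged (limma adjusted p = 0.997). Kyat1 had 0.012. Ido1 and Ido2, the dioxygenases that open the same ring as Tdo2, lay at 4.27 and 4.80 in Pcyt2+/- livers and 4.28 and 4.82 in wild type livers. Aldh8a1, the dehydrogenase that follows Acmsd, had a difference of 0.058 (95% interval -0.15 to 0.26). Further towards NAD, Nmnat1 (the adenylyltransferase) had -0.0063 and Nadsyn1 (the NAD synthetase) -0.021, while Naprt and Nampt, which start the routes from nicotinic acid and nicotinamide, had -0.016 and -0.021. These NAD synthesis genes all had means under 4.6, in the low band of the array. Sirt3, a mitochondrial deacylase that uses NAD, had -0.037, which was -0.022 without wild type replicate 3 and -0.18 after the linear subtraction (limma adjusted p = 0.674).

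**Figure D4:**
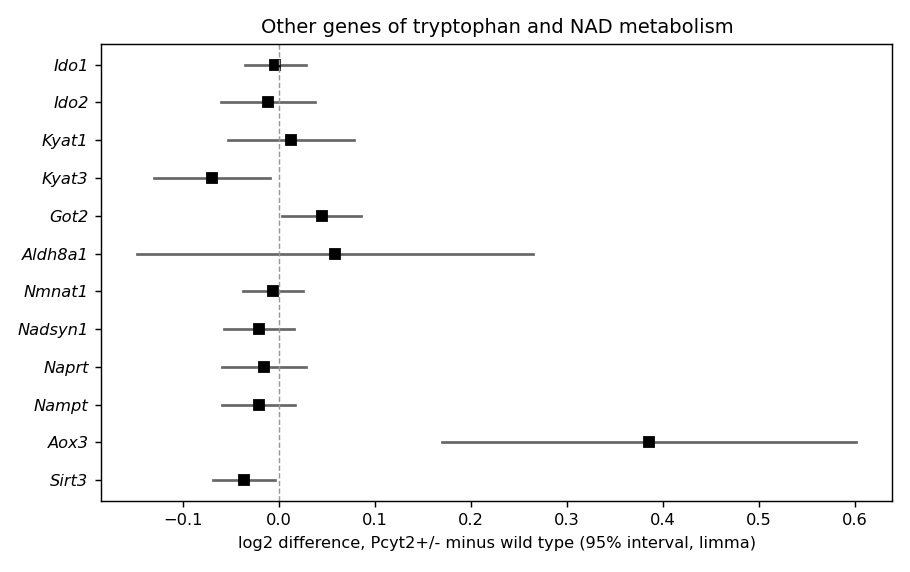
Log2 differences (horizontal axis, Pcyt2+/- minus wild type) of 12 other genes of tryptophan and NAD metabolism, with limma's 95% intervals. Aox3 stands apart at 0.39, and the other 11 estimates lie between -0.069 and 0.058.

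Glucocorticoid-responsive genes, the class to which Tdo2 belongs, were lower in 13 of 14 measured cases with a median of -0.058. Lower too were 9764 of all 18820 genes and 494 of the 792 with a mean above 5. Only 4 of the 14 had a mean above 5. Others lay in the low band with small differences, such as Nr3c1 (mean 4.38, difference -0.0085) and Tsc22d3 (mean 4.33, difference -0.011), so their signs carry little weight. The pattern was already seen in earlier results of these data and so is no independent support. None of the 14 passed limma with adjustment (0 called). At an unadjusted p under 0.05 the count was 3 lower and 0 higher. The shares were 3.44% and 1.86% over all genes, and 14.6% and 5.56% over genes with a mean above 5. Those 3 were Tat, which starts tyrosine breakdown (difference -1.13), Mt2, a metallothionein (-1.07), and Klf15, a Krüppel-like transcription factor (-0.077). Tat passed with a trended and robust prior (limma adjusted p = 0.0418, against 0.219 with the default prior). Mt2 passed without Pcyt2+/- replicate 2 (difference -1.27, limma adjusted p = 0.0167, against 0.607 with all arrays), and after the linear subtraction its difference was -1.71 (adjusted p = 0.326). Klf15 had -0.049 without wild type replicate 4 and -0.26 after the linear subtraction (adjusted p = 0.534). Genes of the aryl hydrocarbon receptor, which kynurenine and kynurenic acid can activate, had a median of -0.0024 over 8 measured genes. In limma 0 were called and 0 were at an unadjusted p under 0.05 in either direction. Only 1 of the 8, Cyp1a2, had a mean above 5, so these counts say little about the activity of the receptor. Cyp1a2, a liver target of that receptor, had 0.20 (0.056 without wild type replicate 4), and Arnt, its partner, had 0.015.

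Pcyt2 itself was lower in Pcyt2+/- by 0.20 (4.64 ± 0.028, SD, n = 4, against 4.84 ± 0.064, SD, n = 2, in wild type, limma adjusted p = 0.264), and by 0.97 after the linear subtraction (adjusted p = 0.0671). All 9 measured hepatocyte markers had means above 5, as the liver label has it. Their mean log2 level ran from 10.075 to 10.166 on the Pcyt2+/- arrays and from 10.251 to 10.253 on the wild type arrays. The markers did not move alike: 7 were lower in Pcyt2+/- and 2 higher, with a median difference of -0.060. Among all 792 genes with a mean above 5, 494 were lower. The largest marker difference was that of Cps1 (-0.56), while Alb had -0.043, and Trf (0.076) and Fgb (0.030) were higher. The 11 macrophage markers, of a cell type that also expresses Kmo and Kynu, had 0 means above 5 and averaged 4.454 to 4.499 on Pcyt2+/- arrays and 4.484 to 4.485 on wild type arrays. Markers of lymphocytes (6), neutrophils (4), endothelial cells (7) and bile duct cells (4) had no mean above 5 either, with 1 of 9 for stellate cells. The part of these cell types, and of the hepatocyte marker level, in the differences of Tdo2 and Kmo was not tested.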

How the data were processed

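Expression was measured on 1 Affymetrix array per mouse liver. Each deposited value is the log2 expression of a probe set. The authors used RMA, per the submitters' processing notes, which give neither its version nor a genome build. Precision is set by how many arrays there are.

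Of 28996 probe sets, 21218 had 1 gene symbol in the platform annotation, 1881 had several and 5897 were unnamed here. The probe set of highest mean stood for a gene (18820 genes). Groups came from the genotype labels. Whether the mice were littermates or processed together was not given. Pcyt2+/- was compared with wild type by limma 3.58.1 in R 4.3.3 (lmFit, eBayes, two-sided, no covariates), with Benjamini-Hochberg adjustment over all genes at 0.05. The steps were tested on simulated data. Other steps used Python 3.11.15, numpy 2.4.6, pandas 2.3.3 and matplotlib 3.10.9.

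Members and lists were chosen with earlier results of these data known. Named were Pcyt2, the members, the remaining pathway steps, up to 6 genes per list with an unadjusted p under 0.05 (otherwise the 2 of smallest p), and the 3 nearest profiles of Tdo2 and Kmo. Alternatives were filters on dim genes, every probe set, averaged probe sets, quantile normalization, median centring, subtraction of the median signal (values under 1 raised to 1, genes with a mean above 4.6), a trended and robust prior, no moderation, weights per array, the replicate number as a block, and each array left out in turn.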

Additional observations from a re-analysis of the deposited data

Results flagged for a closer look

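In 5 of the 32 genes checked, 1 Pcyt2+/- array stood apart from the other 3 by Dixon's test, where chance flags about 5% of groups. Haao was high on Pcyt2+/- replicate 1 (6.032) and Aadat on Pcyt2+/- replicate 4 (5.271), and without those arrays their differences were -0.029 and -0.052. Outside the pathway Mt2 was high on Pcyt2+/- replicate 2 (6.073), Klf15 on replicate 4 (4.892) and Slc38a4 low on replicate 3 (7.009). Wild type groups of 2 arrays cannot be checked in this way, and that includes the high array for Tdo2.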

How the results depend on the processing

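Under 17 alternatives none of the 8 pathway genes passed an adjusted p of 0.05, and Tdo2, Kmo and Nnmt kept a negative difference wherever they were tested (adjusted p from 0.11 to 0.985, from 0.170 to 0.964 and from 0.0945 to 0.9995). Signs turned for some genes, all with a difference under 0.1 in size except Elovl3 (-0.36). With the replicate block they were -0.042 for Kynu, -0.034 for Haao, -0.053 for Qprt, -0.00098 for Kyat1 and -0.014 for Aldh8a1. With quantile normalization they were -0.00033 for Acmsd and 0.0017 for Ido2. With 1 array left out, differences ran from -0.051 to 0.053 (Kynu), -0.029 to 0.044 (Haao), -0.0059 to 0.0088 (Acmsd), -0.020 to 0.078 (Qprt), -0.081 to 0.095 (Aadat), -0.0105 to 0.0033 (Ido1), -0.022 to 0.00081 (Ido2), -0.045 to 0.0027 (Nampt), -0.046 to 0.0049 (Nadsyn1), -0.049 to 0.018 (Naprt), -0.011 to 0.036 (Kyat1), -0.0059 to 0.11 (Aldh8a1) and -0.81 to 0.088 (Elovl3).

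The count of genes called over the array was 3 with genes of a mean above 5, 3 with the median signal subtracted, 9 with the trended and robust prior, 2 with the replicate block, and 0 to 9 with 1 array left out. Pathway genes lower at an unadjusted p under 0.05 numbered 3 with the trended and robust prior, 1 without moderation and 1 to 3 with 1 array left out. The median over the pathway genes was -0.047 with the replicate block and -0.066 to 0.015 with 1 array left out. Of the other tryptophan and NAD genes, the number lower at that p was 0 with either filter on dim genes, quantile normalization, the subtracted median signal and no moderation, 1 with the trended and robust prior, 5 with the replicate block, and 1 to 4 with 1 array left out. The number higher was 1 with either filter, averaged probe sets, the subtracted median signal, the trended and robust prior and the replicate block, and 1 to 5 with 1 array left out. The filter at 5 leaves out Kyat3 and Sirt3, the 2 genes lower with all arrays. Under every other setting, the filter at 4.6 and the subtraction included, both were tested, as Got2 and Aox3 were throughout, and the cause was not tested. Numbers 3 and 4 occur in both groups, but the labels give them no shared litter or batch, and deviations of same-numbered arrays correlated at 0.147 and 0.072 across 18820 genes, which are not independent replicates. A fit without 1 wild type array assumes that the other varies like the Pcyt2+/- arrays.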
